A study of Mus musculus with 4 samples.

Results

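Genes of the postsynaptic scaffold and of synaptic adhesion were read in the brain cortex of SAMP8 mice given TCQA or water. The set was a list of 40 symbols, from the Shank, Dlgap, Dlg and Homer scaffolds through the CaMKII kinases to the neuroligin, Lrrtm, Lrfn and Slitrk adhesion proteins and a group of actin and small GTPase regulators. A gene was taken where a probe set on the array carried its symbol, which held for 39 of the 40, each with 1 probe set, among 22206 gene probe sets in all. No named probe set was used here for Lrfn1. SAMP8 is an inbred mouse strain used as a model of accelerated ageing with early memory impairment. All mice were male, lived in individual cages for 4 months from an age of 7 months, and entered treatment at 11 months. The TCQA group, 2 arrays, received daily oral TCQA at 5 mg/kg over 1 month, and the control group, 2 arrays, received MilliQ water. TCQA is known here only by that abbreviation. Whether both arrays of a group stem from different mice is not given in the labels, so each p-value measures only the spread among these samples, and some of that spread may be technical.

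The postsynaptic density is a protein layer under the membrane of excitatory synapses. Dlg proteins, of which PSD-95 (Dlg4) is the best known, hold glutamate receptors and adhesion proteins at the membrane, Dlgap proteins link them to the Shank proteins below, and Shank and Homer connect this lattice to metabotropic receptors and to actin. Neuroligins, Lrrtm, Lrfn and Slitrk proteins cross the membrane and bind partners on the axon terminal, mainly neurexins and receptor protein tyrosine phosphatases. Most members act at excitatory synapses, whereas Nlgn2, Slitrk3 and Iqsec3 are known for inhibitory synapses.

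The values were log2 signals on an array of well-annotated mouse genes, so a difference of 1 is a 2-fold change of signal. A probe set's level can be compared between arrays and was not set against that of another gene. Correlations between arrays across genes were 0.991 to 0.993. On each array the median negative control probe set, between 7.17 and 7.32, marked a dim signal, and 37 of the 39 members had both groups above it. Homer3 and Lrrtm1 had both groups below it. The cortical label was read against markers of excitatory neurons, of which 11 of 12 measured had both groups above that level, with Slc17a7, the vesicular glutamate transporter of cortical neurons, between 16.02 and 16.68. For each marker list a summed level was taken, the log2 of the sum of its genes' linear signals, in which the brightest genes weigh most. Choroid plexus markers, foreign to cortex, had a summed level of 12.48 and 15.04 on the TCQA arrays and of 9.85 and 16.45 on the control arrays. Striatal markers were highest on TCQA replicate 2 for 7 of 8 (87.5%, against 25.6% of all gene probe sets).

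No member reached an adjusted p under 0.05 in limma, where Benjamini-Hochberg adjustment ran over the whole table: 0 of 39, and 0 of all 22206 gene probe sets, with members' adjusted p from 0.787 to 0.999. Without adjustment 7 members had a p under 0.05, all of them lower with TCQA: the neuroligin gene Nlgn2, the scaffold genes Shank1, Shank2 and Dlgap2, the actin regulator Baiap2, the Arf exchange factor gene Iqsec2 and the adhesion gene Slitrk1. These 7 of 39 are 17.9%, against 2.86% of all gene probe sets called lower at the same p, and 0 of 39 were called higher, against 3.38%. Their log2 differences ran from -0.48 to -0.70, which is 1.39-fold to 1.62-fold lower. A plain one-way comparison, without moderation across genes, also gave 0 members at the adjusted threshold. At an unadjusted p under 0.05 it gave 6 members lower, against 649 of all 22206 gene probe sets, and 1 higher. For the higher direction all gene probe sets were counted only in the moderated fit, so the 1 has no share beside it. The depositors' criterion, a fold change over 2 with an unadjusted p under 0.05, was met by 0 of 39, against 0.171% of all gene probe sets lower and 0.203% higher.

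Of the 39 members 27 had a lower mean with TCQA (69.2%; 28 after median centring of the arrays and 26 after quantile normalization), against 48.9% of all gene probe sets. In 15 both TCQA arrays lay below both control arrays, or 38.5% of the members against 17.8% of all gene probe sets. In 7 both TCQA arrays lay above both control arrays, or 17.9% against 18.9%, so the share that stood above that of the whole table was the lower one. The member median difference was -0.07, and that of all gene probe sets 0.01. Without TCQA replicate 1 the member median was -0.22, without control replicate 1 it was -0.14, and without control replicate 2 it was -0.12. The 25th and 75th percentiles of the members were -0.32 and 0.06, against -0.16 and 0.18 for all gene probe sets. These shares describe the list, whose members were chosen with earlier results of these data known.

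**Figure D1:**
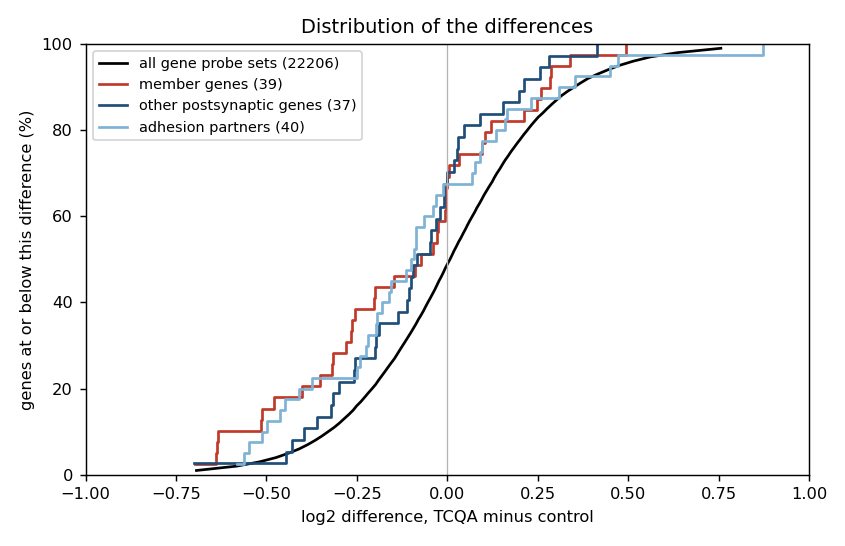
Cumulative share of genes (vertical axis, percent) at or below each log2 difference, TCQA minus control (horizontal axis), for the 39 member genes, 2 other lists of synaptic genes and percentiles of all 22206 gene probe sets. The member curve lies left of the curve of all genes over most of its range, and the member median is -0.07.

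Each array was left out in turn. The 7 members kept their sign in every such fit, which was fixed in advance because their groups do not overlap. The number of members lower at an unadjusted p under 0.05 was 4 without TCQA replicate 1 (2.84% of all gene probe sets in the same fit), 3 with TCQA replicate 2 omitted (3.46%), 3 with control replicate 2 omitted (2.62%) and 0 with control replicate 1 omitted (2.59%). In these fits 1 group is a single array, assumed to vary like the other group, and the spread comes from the remaining pair of arrays with 1 residual degree of freedom. The differences of the 7 without control replicate 1 lay between -0.43 and -0.61. Control replicate 1 was the highest of the 4 arrays for 16 of the 39 members (41.0%, against 23.8% of all gene probe sets). The same control array was the highest for 16 of 16 measured immediate early genes, which neurons switch on when active and which had a list median of -1.11. Without control replicate 1 that median was -0.72. The part of this array in the members' differences was not tested further.

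**Figure D2:**
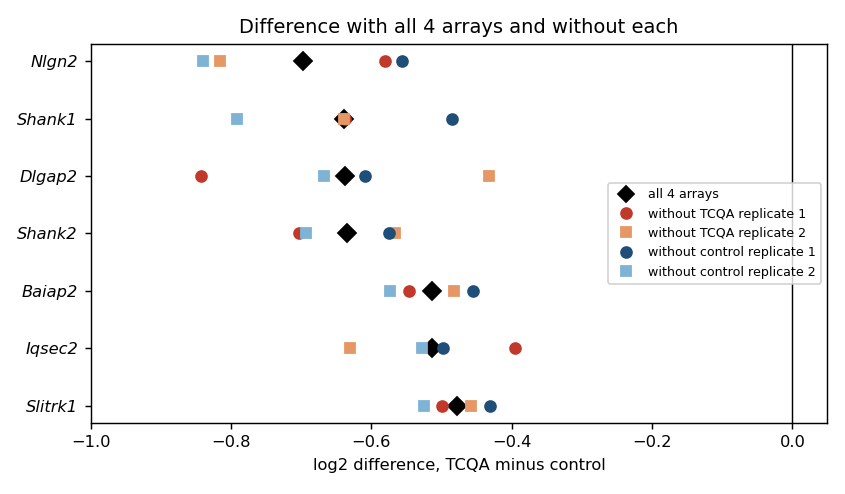
Log2 difference, TCQA minus control (horizontal axis), of the 7 members with an unadjusted p under 0.05 (vertical axis), with all 4 arrays (diamonds) and without each array in turn (circles and squares). Every point lies below 0, from -0.40 for Iqsec2 without TCQA replicate 1 to -0.84 for Dlgap2 without the same array. The groups of these 7 members do not overlap, so no point could lie above 0. The 2 points of Shank1 without a TCQA array lie on its diamond.

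Cortex samples mix cell types, and in such bulk tissue fewer cells of a type and less RNA per cell cannot be told apart. Markers of excitatory neurons had a lower mean in 8 of 12, with a list median of -0.23 and 3 lower at an unadjusted p under 0.05, against 48.9% of all gene probe sets with a lower mean and 2.86% lower at that p. That median ranged with 1 array left out from -0.37 (TCQA replicate 1 omitted) to -0.06 (TCQA replicate 2 omitted), and it was -0.08 when control replicate 1 was omitted. Their summed level, in which the bright Slc17a7 weighs much, was 17.10 and 16.69 on the TCQA arrays and 17.32 and 17.09 on the control arrays. Among them Nrn1, a secreted neuritin that promotes neurite growth, differed by -0.56 (SE 0.21), the transcription factor gene Neurod2 by -0.50 (SE 0.20) and the upper-layer gene Cux2 by -0.48 (SE 0.19). TCQA replicate 2 was the lowest array for 8 of these 12 markers (66.7%) and for 14 of the 39 members (35.9%), against 24.9% of all gene probe sets. Of all 22206 gene probe sets 11349 had a higher mean. Inhibitory neuron markers had a higher mean in 8 of 12, 2 of them at an unadjusted p under 0.05 (3.38% of all gene probe sets). The list median of 0.34 lay between 0.07 and 0.43 with 1 array left out. Summed levels were 16.12 and 16.05 on the TCQA arrays and 15.94 and 15.93 on the control arrays. Astrocyte markers had a higher mean in 8 of 10, 0 of them at an unadjusted p under 0.05. In 6 of the 10 both TCQA arrays lay above both control arrays (18.9% of all gene probe sets), and in 0 below. The astrocyte median of 0.22 lay between 0.11 and 0.32 with 1 array left out. Summed levels were 18.20 and 18.43 on the TCQA arrays and 18.29 and 18.09 on the control arrays. Meningeal fibroblast markers had a higher mean in 10 of 10, with a median of 0.51 and 4 higher at an unadjusted p under 0.05 (3.38% of all gene probe sets), among them the amino acid transporter gene Slc6a20a at a difference of 0.70 (SE 0.19). Their summed levels were 12.53 and 12.78 on the TCQA arrays and 11.45 and 12.66 on the control arrays. Thalamic neuron markers had a higher mean in 7 of 10, 2 of them at an unadjusted p under 0.05 (3.38% of all gene probe sets). The median of that list was 0.44, and it was 0.14 without control replicate 1 and 0.20 without TCQA replicate 2. Their summed levels were 13.59 and 14.01 on the TCQA arrays and 12.86 and 13.41 on the control arrays. Endothelial markers had a higher mean in 7 of 10, 2 of them at an unadjusted p under 0.05 (3.38% of all gene probe sets). The endothelial median of 0.13 lay between 0.05 and 0.25 with 1 array left out. Summed levels were 14.63 and 14.68 on the TCQA arrays and 14.34 and 14.19 on the control arrays. The part of cell makeup in the members' differences was not tested.

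**Figure D3:**
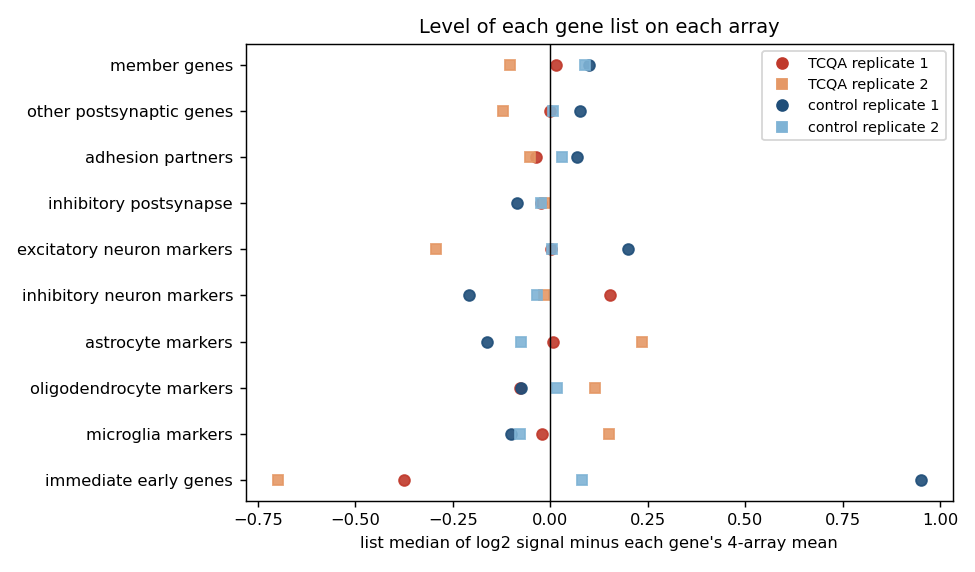
Median over each gene list of the log2 signal minus each gene's mean over the 4 arrays (horizontal axis), for the members and 9 other lists (vertical axis), on each array (points). The member genes had 0.02 and -0.10 on the TCQA arrays and 0.10 and 0.09 on the control arrays, and the immediate early genes had 0.95 on control replicate 1.

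Start site sequences were sought for the 7 members lower at an unadjusted p under 0.05, so that their promoters could be read side by side. No member passed the adjusted threshold. Of the 7, 4 had an entry in the RefSeq promoter table (GRCm38.p6), which gives 250 bases before to 50 bases after an annotated start. Iqsec2 has 2 windows there and the first listed is printed. Capitals mark each GGGCGG, the GC box that Sp1 proteins bind, or its reverse complement, and in Baiap2 a pair of them adjoin.
Nlgn2 chr11:69837735-69838034, minus strand: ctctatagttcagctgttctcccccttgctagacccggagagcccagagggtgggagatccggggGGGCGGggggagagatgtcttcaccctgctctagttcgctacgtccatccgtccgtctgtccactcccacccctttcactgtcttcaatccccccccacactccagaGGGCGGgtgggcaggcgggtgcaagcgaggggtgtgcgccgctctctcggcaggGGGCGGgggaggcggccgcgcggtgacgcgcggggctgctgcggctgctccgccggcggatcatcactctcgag
Baiap2 chr11:119942842-119943141, plus strand: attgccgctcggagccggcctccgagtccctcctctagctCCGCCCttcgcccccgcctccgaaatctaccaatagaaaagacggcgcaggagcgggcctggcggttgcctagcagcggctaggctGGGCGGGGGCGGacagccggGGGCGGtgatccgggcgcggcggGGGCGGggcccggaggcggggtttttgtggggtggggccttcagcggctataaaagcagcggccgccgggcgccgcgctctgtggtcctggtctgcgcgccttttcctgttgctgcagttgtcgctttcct
Iqsec2 chrX:152144018-152144317, plus strand: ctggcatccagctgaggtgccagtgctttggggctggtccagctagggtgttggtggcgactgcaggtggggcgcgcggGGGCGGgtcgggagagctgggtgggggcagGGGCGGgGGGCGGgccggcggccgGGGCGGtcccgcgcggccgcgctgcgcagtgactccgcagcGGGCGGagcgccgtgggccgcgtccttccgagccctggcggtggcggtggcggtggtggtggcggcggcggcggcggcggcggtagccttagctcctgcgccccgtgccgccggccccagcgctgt
Slitrk1 chr14:108914190-108914489, minus strand: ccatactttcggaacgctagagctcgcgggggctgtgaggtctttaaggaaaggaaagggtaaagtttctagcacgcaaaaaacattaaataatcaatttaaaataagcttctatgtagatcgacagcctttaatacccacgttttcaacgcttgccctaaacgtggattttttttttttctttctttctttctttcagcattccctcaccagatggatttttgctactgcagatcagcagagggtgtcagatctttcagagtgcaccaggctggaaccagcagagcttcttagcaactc
The 4 windows did not look alike. Nlgn2 held 3 GC boxes in a window of 68.7% G and C, Baiap2 held 5 in 70.3%, Iqsec2 held 5 in 79.7%, and Slitrk1 held 0 in 42.3%. Over all windows in the table, searched on both strands, 35.7% held a GC box, and 46.8% of the 47 windows of 30 members did. The cAMP response element TGACGTCA was in 1.79% of all windows and in 1 of the 47, and the AP-1 site TGAGTCA in 5.2% of all and in 0 of the 47. Neither was in the 4 windows printed. The shorter motif TGACG, which is part of TGACGTCA, was in 20.8% of all windows and in 17% of the members' windows, Nlgn2 among them. Median G and C content was 59.3% over the members' windows and 52.7% over all. These are matches of letters and say nothing of binding.

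Within the Shank and the Dlgap families the mean differences were not alike, but contrasts between members of a family were not tested. Shank1, a core scaffold of the excitatory postsynaptic density, read 14.54 on both TCQA arrays and 15.33 and 15.02 on the control arrays. The TCQA arrays were nearly equal and the control arrays stood above both. The difference was -0.64 (95% confidence interval -1.10 to -0.18, limma unadjusted p = 0.0147, adjusted p = 0.787). It shrank to -0.48 when control replicate 1 was left out. Shank2, its close relative, read 10.40 and 10.27 with TCQA and 11.03 and 10.91 in control. Both groups were tight and apart, with a difference of -0.63 (95% confidence interval -1.06 to -0.20, limma unadjusted p = 0.011, adjusted p = 0.787). Shank3, the family member whose loss causes Phelan-McDermid syndrome in humans, read 8.66 and 8.49 with TCQA and 8.51 and 8.58 in control. Its groups overlapped at a difference of 0.03 (95% confidence interval -0.40 to 0.46). The log2 ratio of Shank1 to Shank3, centred on its mean over the 4 arrays, was -0.42 and -0.25 on the TCQA arrays and 0.52 and 0.15 on the control arrays, a shift of -0.67 that was chosen after its values were seen and was not tested.

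Dlgap2, which ties PSD-95 to Shank, read 11.82 and 11.41 with TCQA and 12.29 and 12.23 in control. Both TCQA arrays were lower, TCQA replicate 2 most, and the difference of -0.64 (SE 0.21) was -0.84 without TCQA replicate 1 and -0.43 without TCQA replicate 2. Dlgap1 was low on TCQA replicate 2 alone, at 14.08 against 14.74 on the other TCQA array and 14.77 and 14.68 in control. Its difference of -0.32 was 0.01 without that array. Dlgap4 read 11.35 and 11.14 with TCQA and 11.52 and 11.50 in control, a difference of -0.26 (SE 0.18) that was -0.16 without TCQA replicate 2. Dlgap3, the member linked to compulsive grooming when it is lost in mice, went the other way, at 9.59 on both TCQA arrays and 9.41 and 9.28 in control. That difference was 0.25 (95% confidence interval -0.17 to 0.67).

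The Dlg scaffolds hold receptors at the membrane. Dlg4, the gene of PSD-95, read 15.42 and 15.64 with TCQA and 15.50 and 15.55 in control, so its TCQA arrays lay on either side of the control arrays. The 95% confidence interval of its difference ran from -0.44 to 0.44. Dlg2, which encodes PSD-93, read 14.73 and 14.77 with TCQA and 14.68 and 14.83 in control, with an interval of -0.43 to 0.42. Dlg3, the X-linked SAP102 gene, overlapped at a difference of -0.20 (SE 0.19), which was -0.08 without TCQA replicate 2 and -0.10 without control replicate 2. Dlg1, which also serves epithelial polarity, was the member of this family whose groups did not overlap. It read 12.97 and 12.98 with TCQA and 13.20 and 13.26 in control, a difference of -0.26 (SE 0.17).

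Homer proteins link Shank to metabotropic glutamate receptors and to calcium stores. Homer2 read 8.70 and 8.60 with TCQA and 8.37 and 8.24 in control. Both TCQA arrays were higher, with a difference of 0.34 (95% confidence interval -0.09 to 0.77, limma unadjusted p = 0.1). Homer3, best known from cerebellar Purkinje cells, lay below the negative control median in both groups, at 6.84 and 6.54 with TCQA and 6.81 and 6.58 in control. Homer1, which is no member and has an activity-induced short form, differed by -0.14 (SE 0.19), with its groups overlapping.

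The CaMKII kinase, which calcium activates in the spine, is built from 4 related subunits, and the alpha and beta forms went in opposite directions. Camk2a, the alpha form of forebrain excitatory neurons, read 18.06 and 18.13 with TCQA and 18.43 and 18.32 in control, a difference of -0.28 (SE 0.17). Camk2b, the beta form, which also binds actin, read 17.31 and 17.21 with TCQA and 16.98 and 16.97 in control, a difference of 0.28 (SE 0.17). Neither had an unadjusted p under 0.05 (limma, 0.157 and 0.149), and in both the groups did not overlap. The log2 ratio of Camk2a to Camk2b, centred on its mean over the 4 arrays, was -0.37 and -0.19 on the TCQA arrays and 0.33 and 0.24 on the control arrays, a shift of -0.56. After quantile normalization Camk2a differed by -0.17 and Camk2b by 0.24, a shift of -0.41. This pair was chosen after its values were seen and the shift was not tested. Camk2g, the gamma form, read 13.13 and 12.67 with TCQA and 13.29 and 13.14 in control, so its lower mean (-0.31) rested on TCQA replicate 2 and was -0.08 without it. Camk2d, the delta form found in many tissues, overlapped, with a 95% confidence interval of -0.48 to 0.47.

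**Figure D4:**
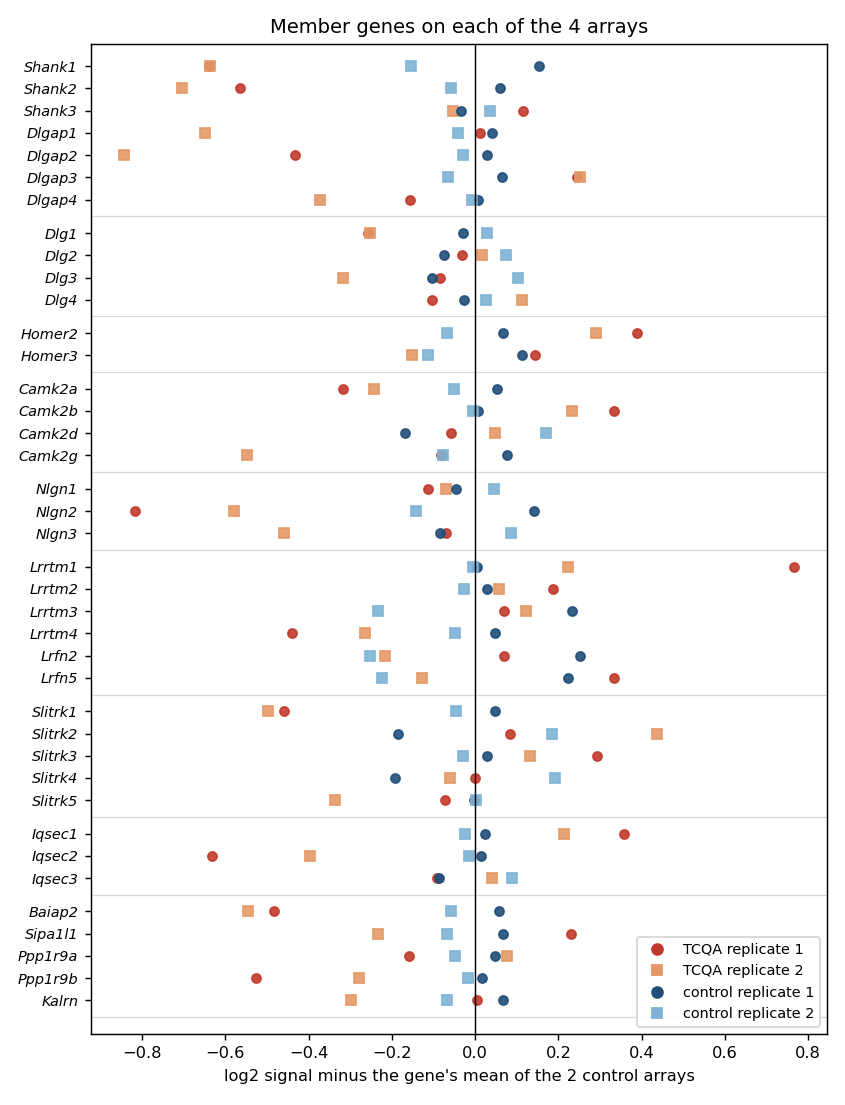
Log2 signal of each of the 39 members on each array, minus the gene's mean over the 2 control arrays (horizontal axis), with the genes in the order of their families (vertical axis). Both TCQA arrays lie left of both control arrays for 15 genes, among them Shank1, Shank2, Dlgap2, Camk2a and Nlgn2, and right of them for 7, among them Dlgap3, Camk2b and Homer2.

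Among the neuroligins, which bind neurexins across the cleft, Nlgn2 had the largest difference of all 39 members. Nlgn2 is the neuroligin of inhibitory synapses and recruits gephyrin there. It read 11.00 and 11.24 on the TCQA arrays and 11.96 and 11.68 on the control arrays, so both control arrays stood above both TCQA arrays. The difference was -0.70 (95% confidence interval -1.18 to -0.21, limma unadjusted p = 0.0121, adjusted p = 0.787), and it was -0.56 without control replicate 1. Nlgn1, the neuroligin of excitatory synapses, read 13.12 and 13.16 with TCQA and 13.18 and 13.27 in control. These values did not overlap but were close, at -0.09 (95% confidence interval -0.51 to 0.33). Nlgn3, found at both kinds of synapse and linked to autism in humans, was low on TCQA replicate 2 alone, at 12.70 against 13.09 on the other TCQA array and 13.08 and 13.25 in control. Its difference of -0.27 was -0.07 without that array.

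Lrrtm proteins are leucine-rich partners of neurexins and of heparan sulfate proteins. Lrrtm4 read 13.97 and 14.15 with TCQA and 14.46 and 14.36 in control, a difference of -0.35 (95% confidence interval -0.79 to 0.08). Lrrtm2, the member of the family that helps hold AMPA receptors in place, read 12.48 and 12.35 with TCQA and 12.32 and 12.26 in control, a difference of 0.12 (SE 0.17) with TCQA on the higher side. Lrrtm1 had the largest difference in the higher direction, 0.49 (SE 0.23), from 7.13 and 6.59 with TCQA and 6.37 and 6.36 in control. All of its values were below the negative control median of the arrays, so the size of that difference is less certain, and it was 0.22 without TCQA replicate 1. Lrrtm3 overlapped, with control values of 13.22 and 12.75 on either side of the TCQA values of 13.06 and 13.11. Of the related Lrfn genes, which encode the SALM adhesion proteins, Lrfn2 and Lrfn5 each had 1 high and 1 low array in both groups. Lrfn2 differed by -0.07 (SE 0.24) and Lrfn5 by 0.10 (SE 0.25), and either sign turned when 1 array was left out.

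Slitrk proteins bind receptor tyrosine phosphatases on the axon. Slitrk1, a gene studied in Tourette syndrome, read 11.59 and 11.55 with TCQA and 12.10 and 12.01 in control. Both groups were tight, and the difference of -0.48 (95% confidence interval -0.90 to -0.06, limma unadjusted p = 0.0309, adjusted p = 0.787) moved only between -0.43 and -0.53 when an array was left out. Slitrk5 read 12.60 and 12.33 with TCQA and 12.66 and 12.67 in control, a difference of -0.20 (SE 0.19) that was -0.07 without TCQA replicate 2. Slitrk3, which acts at inhibitory synapses, was higher on both TCQA arrays, at 10.85 and 10.69 against 10.59 and 10.53 in control, a difference of 0.21 (95% confidence interval -0.22 to 0.64). With Nlgn2 at -0.70 and Iqsec3 at -0.03, the 3 members known from inhibitory synapses had means on both sides of 0. Slitrk2 differed by 0.26 (SE 0.22), 0.08 without TCQA replicate 2 or control replicate 1, and Slitrk4 by -0.03 (SE 0.20), both with overlapping groups.

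The Iqsec genes encode exchange factors for the small GTPase Arf6, which steers receptor traffic. Iqsec2, an X-linked gene of intellectual disability in humans, read 9.45 and 9.68 with TCQA and 10.09 and 10.06 in control. The control arrays were nearly equal and above both TCQA arrays, at a difference of -0.51 (95% confidence interval -0.96 to -0.07, limma unadjusted p = 0.0296, adjusted p = 0.787). Iqsec1 read 9.29 and 9.14 with TCQA and 8.96 and 8.91 in control, the opposite order, with a difference of 0.29 (SE 0.18). Iqsec3 read 11.47 and 11.60 with TCQA and 11.47 and 11.65 in control.

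All 5 regulators of actin and small GTPases had a lower mean, Sipa1l1 by so little that it turned to 0.012 after quantile normalization, and for 3 of them the groups overlapped. Baiap2, the IRSp53 protein that bends membranes and binds Shank and PSD-95, read 12.40 and 12.33 with TCQA and 12.94 and 12.82 in control. Its difference was -0.51 (95% confidence interval -0.94 to -0.09, limma unadjusted p = 0.0244, adjusted p = 0.787), and without each array in turn it lay between -0.46 and -0.57. Ppp1r9b, spinophilin, which anchors protein phosphatase 1 to spine actin, read 14.86 and 15.11 with TCQA and 15.41 and 15.37 in control. Those groups did not overlap, at a difference of -0.40 (95% confidence interval -0.85 to 0.04). Its relative Ppp1r9a, neurabin, overlapped at -0.04 (SE 0.18). Kalrn, the kalirin exchange factor for Rac, differed by -0.15 (SE 0.19), and Sipa1l1, a Rap GTPase-activating protein of spines also called SPAR, read 14.26 and 13.79 with TCQA on either side of 14.09 and 13.96 in control.

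**Figure D5:**
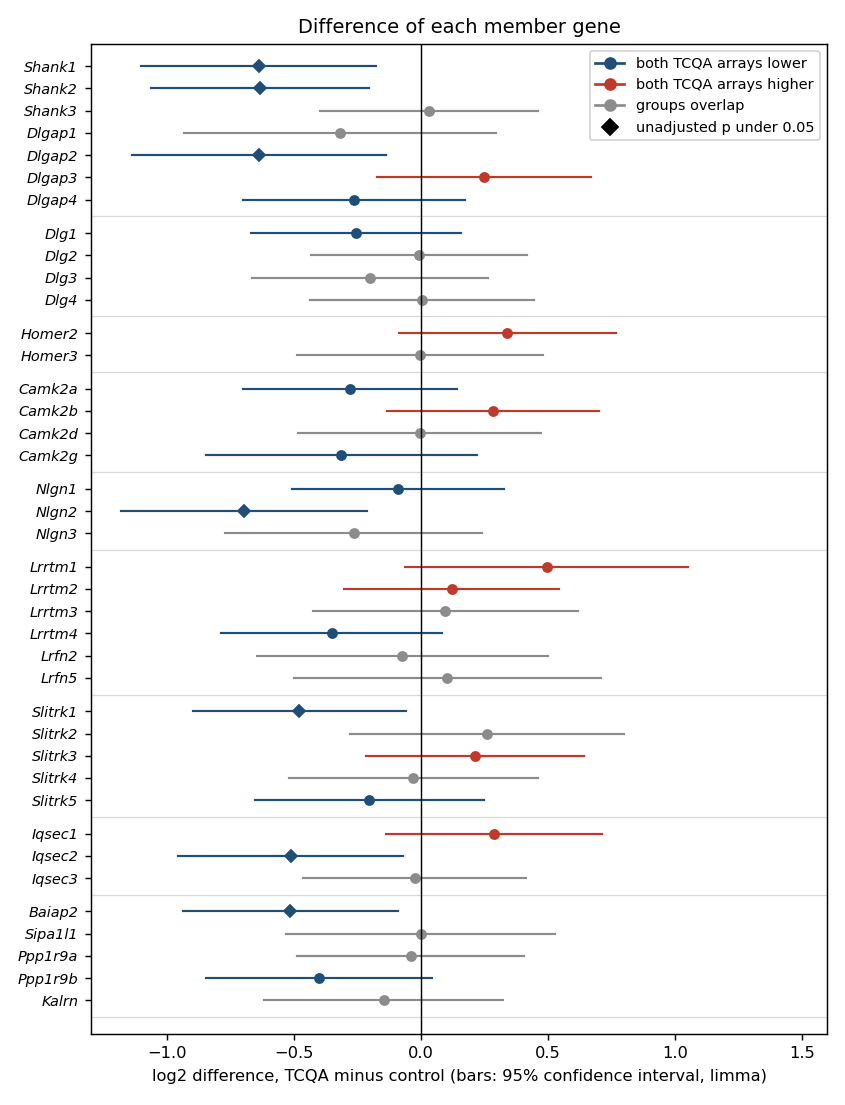
Log2 difference, TCQA minus control, of each of the 39 members (horizontal axis) with its 95% confidence interval from limma (bars), with the genes in the order of their families (vertical axis). Colours show whether the 2 groups overlap and diamonds mark the 7 members with an unadjusted p under 0.05, from -0.48 for Slitrk1 to -0.70 for Nlgn2. The intervals of all other members include 0.

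Other genes of the same synaptic machinery were read for comparison. Of 37 measured genes of other postsynaptic scaffold and signalling proteins 26 had a lower mean (70.3%, against 48.9% of all gene probe sets). Their median of -0.08 was -0.17 without TCQA replicate 1 and -0.03 without TCQA replicate 2. At an unadjusted p under 0.05 there were 3 lower (8.11%, against 2.86% of all gene probe sets) and 0 higher (against 3.38%). At the adjusted threshold there were 0. Nrgn, the calmodulin-binding protein neurogranin of spines, read 15.34 and 14.89 with TCQA and 15.96 and 15.67 in control, a difference of -0.70 (SE 0.23). Agap2, a GTPase-activating protein for Arf, differed by -0.43 (SE 0.17), and Dbn1, the spine actin-binding protein drebrin, by -0.45 (SE 0.18). In the other direction without overlap were Sipa1l2, at 0.28 (SE 0.19), and Tanc1, whose groups were both below the negative control median.

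Of 40 measured adhesion partners and other synaptic adhesion genes 27 had a lower mean (67.5%, against 48.9% of all gene probe sets), with a median of -0.10. At an unadjusted p under 0.05 there were 5 lower (12.5%, against 2.86% of all gene probe sets) and 1 higher (2.5%, against 3.38%). At the adjusted threshold there were 0. The shares lower without overlap were 40% of this list, 29.7% of the other postsynaptic list and 38.5% of the members, against 17.8% of all gene probe sets, so the members did not stand apart from their partners in this count. The receptor phosphatase gene Ptprf, the LAR protein that Slitrk and other adhesion proteins bind, read 8.58 and 8.62 with TCQA and 9.10 and 9.26 in control, a difference of -0.58 (SE 0.18). Lrrc4, a netrin-G ligand that binds PSD-95, was also tight within groups, at 10.17 on both TCQA arrays and 10.72 and 10.65 in control. The teneurin gene Tenm4 differed by -0.50 (SE 0.18) and the latrophilin gene Adgrl1 by -0.45 (SE 0.18). Mdga1, whose protein binds neuroligins and blocks their contact with neurexins, was higher, at 7.99 and 8.26 with TCQA against 7.62 and 7.68 in control, a difference of 0.47 (SE 0.19, limma unadjusted p = 0.0439). Of the neurexin genes read here, whose proteins are partners of neuroligins and Lrrtm proteins, Nrxn2 differed by 0.09 (SE 0.18) with overlap, and Nrxn3 by -0.16 (SE 0.18) without overlap.

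Since Nlgn2 acts at inhibitory synapses, 14 measured genes of the inhibitory postsynapse were set beside it. The list was evenly divided, 7 with a lower and 7 with a higher mean. Without overlap 5 were lower and 5 higher, 35.7% each, against 17.8% and 18.9% of all gene probe sets. The list median of 0.06 was -0.04 without TCQA replicate 1 and -0.08 without TCQA replicate 2. Gphn, the scaffold gephyrin that Nlgn2 recruits, read 12.10 and 12.12 with TCQA and 12.18 and 12.32 in control, a difference of -0.14 (SE 0.17). Shisa7, an auxiliary protein of GABA-A receptors, had the only unadjusted p under 0.05 of this list (7.14%, against 2.86% of all gene probe sets lower). It read 10.85 and 11.01 with TCQA and 11.55 and 11.52 in control (-0.61, SE 0.18). Gabra2, a GABA-A receptor subunit, was higher on both TCQA arrays, at a difference of 0.38 (SE 0.20).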

How the data were processed

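RNA from the brain cortex was amplified and labelled from 100 ng with the WT PLUS kit and hybridised to Clariom S mouse arrays, per the labels' protocols. The authors deposited log2 signals, 1 per probe set, made with SST-RMA in the Transcriptome Analysis Console 4.0.2, per the series' design text. That algorithm corrects for probe sequence, brings the arrays to 1 distribution and summarises probes, so a shift common to all genes would be removed. The probe sets' genome build: not given in the sources used here. Of 28846 probe sets, 6640 controls were left out of the tests, and 22206 entered, of which 19572 had 1 symbol and 0 several in the platform annotation and 2634 were unnamed.

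Groups came from the sample titles. limma 3.58.1 in R 4.3.3 (lmFit, eBayes, two-sided, TCQA minus control, Benjamini-Hochberg over 22206 probe sets) left 2 residual degrees of freedom, with 4.23 added by the prior, and was tested on simulated data. With 2 arrays a group, their number limits the precision, and the median SE was 0.20. Members were read from this fit. The members and lists were chosen with earlier results of these data known. All 39 members could be named, and, of each other list, up to 4 genes a direction without overlap and with the smallest p, plus Homer1, Nrxn2, Nrxn3, Gphn and Slc17a7. Detection calls were not used here. Alternatives changed moderation, weights, normalization, the dim filter, the replicate block and single arrays. Figures were drawn with matplotlib 3.10.9.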

Additional observations from a re-analysis of the deposited data

How the results depend on the processing

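No member passed the adjusted threshold under any of the 13 alternatives run, and the smallest adjusted p of a member among them was 0.51. Over all gene probe sets 0 passed, except 4 without TCQA replicate 1 (0 to 4 without 1 array). Members lower at an unadjusted p under 0.05, 7 with all arrays, numbered 6 to 10 under the alternatives that kept all 4 arrays. Of all 22206 gene probe sets 636 were lower at that p in the main fit. Without empirical Bayes 649 were lower (6 members), and with a trend 715 (10 members). Members higher at that p were 0 with all arrays (against 3.38% of all gene probe sets), 1 without empirical Bayes and 1 with a trend. For the higher direction the whole table was counted in the main fit only. The member median of -0.07 lay between -0.22 and -0.070 without 1 array. That of other postsynaptic genes lay between -0.17 and -0.029. That of adhesion partners lay between -0.13 and -0.081, and was -0.12 after quantile normalization. The inhibitory postsynapse median of 0.06 lay between -0.084 and 0.11, and was 0.13 with dim probe sets left out. With dim probe sets left out 8 of 37 members were lower at an unadjusted p under 0.05, against 4% of 11335 probe sets.

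The labels do not say that replicate numbers pair the arrays, and the deviations of same-numbered arrays correlated at 0.05. With the replicate block 7 members were lower at an unadjusted p under 0.05, against 636 of all 22206 gene probe sets, and 0 members passed the adjusted threshold.

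The sign could not change without 1 array in the 15 lower and 7 higher members whose groups did not overlap. Those at an unadjusted p under 0.05 are all among them. Only the 17 with overlapping groups could change sign. Of the 39 members 25 kept their sign without each array. The other 14 changed sign, with these lowest and highest differences without 1 array: Camk2d -0.17 to 0.16, Dlg2 -0.082 to 0.068, Dlg4 -0.10 to 0.11, Dlgap1 -0.65 to 0.011, Homer3 -0.15 to 0.14, Iqsec3 -0.11 to 0.062, Kalrn -0.30 to 0.0053, Lrfn2 -0.33 to 0.18, Lrfn5 -0.13 to 0.33, Lrrtm3 -0.14 to 0.33, Ppp1r9a -0.16 to 0.076, Shank3 -0.052 to 0.11, Sipa1l1 -0.23 to 0.23, Slitrk4 -0.22 to 0.16. Of those that kept their sign 10 moved by over 1.5 times: Dlgap4 -0.37 to -0.16, Dlg3 -0.32 to -0.083, Camk2g -0.55 to -0.081, Nlgn1 -0.14 to -0.046, Nlgn3 -0.46 to -0.070, Lrrtm1 0.22 to 0.77, Lrrtm2 0.057 to 0.19, Slitrk2 0.075 to 0.44, Slitrk3 0.13 to 0.29, Slitrk5 -0.34 to -0.072. After quantile normalization Camk2a was -0.17. Dlg4 was -0.0029 after median centring and Sipa1l1 0.012 after quantile normalization, both from near 0. The cause of these changes was not tested.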
